A study of Mus musculus with 10 samples.

Results

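The p53 arrest and feedback genes are 10 mouse genes chosen by symbol: Cdkn1a, Mdm2, Ccng1, Phlda3, Sesn1, Sesn2, Btg2, Ppm1d, Plk2 and Trp53inp1. Each was found by its Ensembl identifier among the 45786 genes of the deposited tables, and all 10 were among the 15625 genes with enough counts to be tested. Transcripts were measured by RNA sequencing of whole lung, dissociated to a suspension of cells; the mice were of the inbred strain C57BL/6J. The irradiated pools came from mice given 12.5 Gy of γ-radiation to the whole thorax and sampled at 24 hours or at 1, 4, 12 or 32 weeks, and the control pools from age-matched mice given 0 Gy and sampled at the same times. RNA of 3 mice was combined in each library, which gave 5 irradiated and 5 control pools, a single pool of each kind per time. The age, sex and genotype of the mice are not given in the labels used here.

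The transcription factor p53 is stabilised when DNA breaks, and it then switches on genes that stop the cell cycle, repair the damage or kill the cell. Among them, Cdkn1a encodes p21, the inhibitor of cyclin-dependent kinases that holds damaged cells out of division. Others feed back on p53 itself: Mdm2 encodes the ubiquitin ligase that marks p53 for degradation, Ppm1d encodes the phosphatase Wip1, which removes the activating phosphates of the damage response, and Ccng1 encodes cyclin G1, which recruits a phosphatase to Mdm2. The thorax dose used here is a standard way to produce lung injury and, later, fibrosis in this strain.

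Values below are CPM, that is, counts divided by the TMM-corrected size of the library. At each time the irradiated pool was tested against all 5 controls by edgeR's quasi-likelihood F test, and p-values were adjusted over all 15625 genes by the Benjamini-Hochberg method with a threshold of 0.05. The words rose and fell are used for genes that passed this test. The test assumes that a lone irradiated pool varies like controls of different ages, the same 5 controls serve all 5 times, and p-values measure the spread between pools without separating animals from library preparation. The matched ratio of a pool to the control of its own time, at a prior count of 2, compares 1 pool with 1 pool and has no test. Libraries held 8629943 to 17438362 fragments before the authors' scaling, and hemoglobin transcripts took 2.1% to 6.57% of the irradiated and 0.804% to 6.67% of the control libraries. All 13 lists of lung and blood cell markers were detected, with no marker at 0 in any pool. In whole-lung RNA, fewer cells of a type and less RNA per cell cannot be told apart.

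At 24 hours 5 of the 10 members rose and none fell, where 0.602% of all genes tested rose and 0.454% fell. The 5 were Cdkn1a, Phlda3, Ccng1, Sesn2 and Mdm2, and another 3 (Plk2, Trp53inp1 and Ppm1d) lay above every control pool without passing. The count of 8 members above all 5 controls stands beside 22.1% of all genes that did so. At 1 week 2 members rose (Cdkn1a and Phlda3), at 4 weeks 1 (Cdkn1a), at 12 weeks 0 and at 32 weeks 1 (Phlda3). The share of all genes that rose was 0.0192% at 1 week, 0.0128% at 4 weeks, 0% at 12 weeks and 0.576% at 32 weeks. The share that fell was 0%, 0.0448%, 0% and 0.25% at those times, and no member was among them. Under total count scaling the split of higher and lower calls over all genes moved to 54 and 68 at 24 hours, against 94 and 71 with TMM, and to 36 and 29 at 32 weeks, against 90 and 39. At 4 weeks it was 1 and 7, against 2 and 7.

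**Figure D1:**
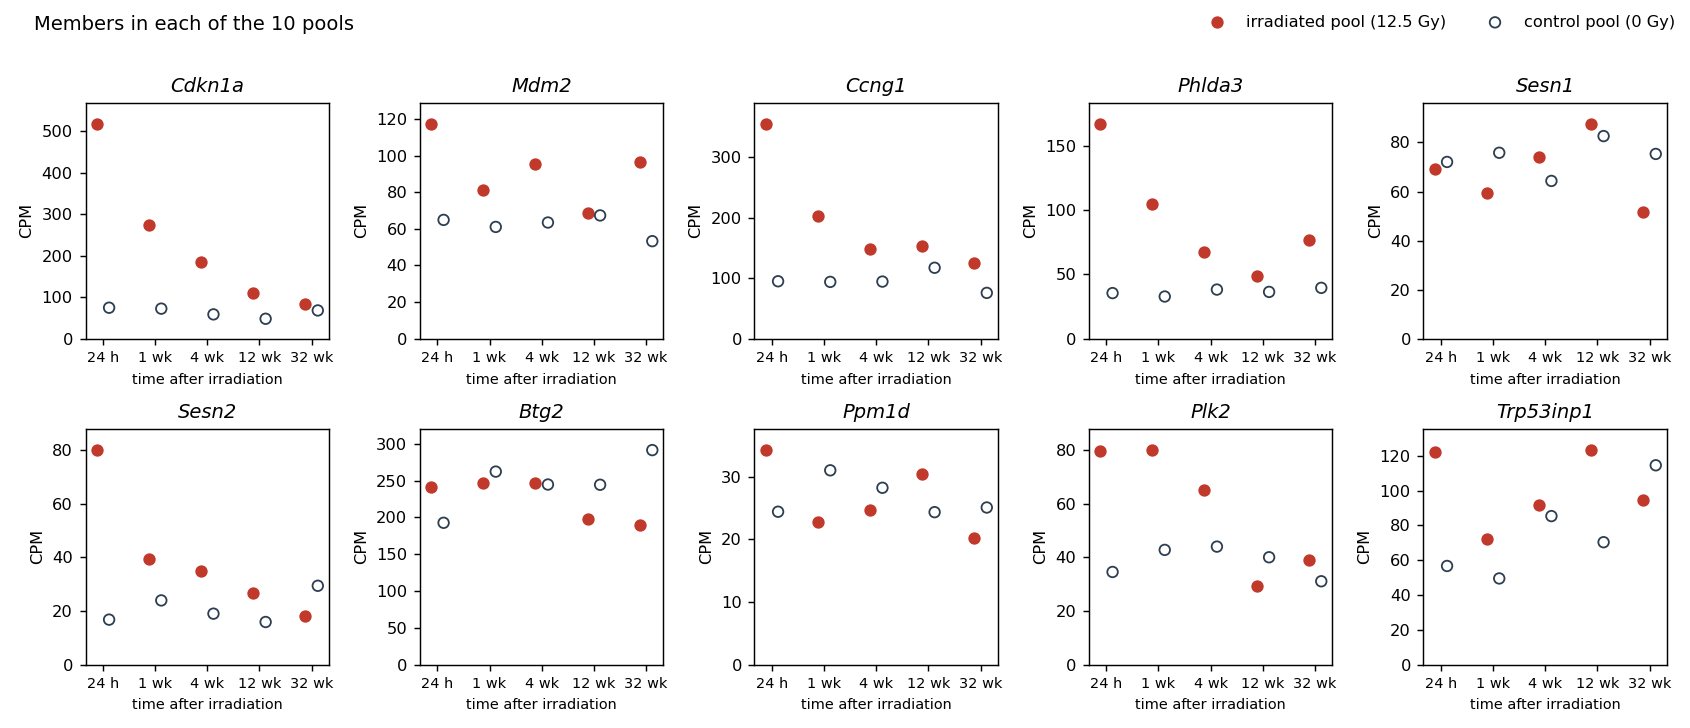
CPM of the 10 members in each pool, with a panel per gene, time after irradiation on the horizontal axis, filled points for irradiated pools and open points for control pools. In Cdkn1a, Mdm2, Ccng1 and Phlda3 all 5 irradiated points lie above all 5 control points; in the other 6 panels the groups overlap.

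Cdkn1a (chromosome 17, 29090976 to 29100727, plus strand, GRCm38) had the largest rise of the 10. It measured 517, 275, 186, 110 and 82.8 CPM in the irradiated pools at 24 hours and 1, 4, 12 and 32 weeks, against 75.0, 72.7, 58.9, 48.3 and 68.4 CPM in the controls of the same times. Every irradiated pool lay above every control, and each later irradiated pool lay below the one before it. The matched ratios were 6.88, 3.77, 3.15, 2.27 and 1.21. Against the 5 controls the log2 difference was 3.00 ± 0.19 (SE) at 24 hours (edgeR adjusted p = 0.000121), 2.09 ± 0.20 at 1 week (0.0187) and 1.52 ± 0.21 at 4 weeks (0.0497). It was 0.77 ± 0.22 at 12 weeks (edgeR adjusted p = 0.288) and 0.36 ± 0.23 at 32 weeks (0.503), which did not pass. By p-value Cdkn1a ranked 3 of 15625 genes at 24 hours, 1 at 1 week and 9 at 4 weeks, then 355 at 12 weeks and 4885 at 32 weeks. The call at 24 hours was kept under all 12 alternatives (other scalings, filters and tools, or 1 control left out), with edgeR, DESeq2 or limma adjusted p of at most 0.00111. The later calls did not hold under every alternative, although the log2 difference changed little. It ranged from 1.99 to 2.16 at 1 week and from 1.43 to 1.72 at 4 weeks. With all 5 controls kept, the 4-week call was lost under total count scaling, with DESeq2 size factors in edgeR and with counts divided by each library's scaling step. Without the 1-week or the 32-week control the edgeR adjusted p at 1 week was 0.0864 or 0.0614, and it was 0.0609 under total count scaling. At 4 weeks it was 0.0658, 0.154, 0.0586 and 0.0989 without the 24-hour, 1-week, 4-week and 32-week control. Of its 3553 exon bases, 273 are shared with a transcript of uncertain status on the opposite strand (AC167363.2), from which unstranded reads cannot be told apart.

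Ccng1 (chromosome 11, 40748552 to 40755311, minus strand) measured 354, 203, 148, 153 and 125 CPM in the irradiated pools in time order. The controls measured 95.1, 94.0, 94.6, 117 and 75.9 CPM. All irradiated pools lay above all controls, by the least at 32 weeks, where the highest control was that of 12 weeks. Its matched ratios were 3.72, 2.16, 1.56, 1.30 and 1.65. It rose at 24 hours (log2 1.89 ± 0.19, edgeR adjusted p = 0.00179), and the 1-week difference of 1.09 ± 0.20 did not pass (0.167). The later differences were 0.63 ± 0.21, 0.68 ± 0.21 and 0.39 ± 0.21 at 4, 12 and 32 weeks (edgeR adjusted p = 0.543, 0.306 and 0.405). Under the 12 alternatives the adjusted p at 24 hours was at most 0.00914.

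The windows around the starts of Cdkn1a and Ccng1 are printed because they hold the closest matches to the p53 response element among the members. The search covered 250 bases before to 50 bases after the annotated starts (RefSeq, GRCm38.p6) for the p53 half-site consensus of 10 bases, whose letters read the same on both strands, and for pairs of half-sites with no spacer (20 bases). Of the 10 members 9 had entries, with 11 windows; Trp53inp1 was not matched. Capitals mark half-sites and the 20-base pairs, which overlap a half-site.
Cdkn1a, chr17:29090729-29091028, plus strand: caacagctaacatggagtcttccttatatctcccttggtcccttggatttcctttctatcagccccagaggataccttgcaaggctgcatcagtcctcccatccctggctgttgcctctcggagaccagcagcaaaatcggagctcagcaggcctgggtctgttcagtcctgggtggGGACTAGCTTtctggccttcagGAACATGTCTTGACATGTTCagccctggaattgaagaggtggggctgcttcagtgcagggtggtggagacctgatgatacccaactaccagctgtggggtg
Ccng1, chr11:40755237-40755536, minus strand: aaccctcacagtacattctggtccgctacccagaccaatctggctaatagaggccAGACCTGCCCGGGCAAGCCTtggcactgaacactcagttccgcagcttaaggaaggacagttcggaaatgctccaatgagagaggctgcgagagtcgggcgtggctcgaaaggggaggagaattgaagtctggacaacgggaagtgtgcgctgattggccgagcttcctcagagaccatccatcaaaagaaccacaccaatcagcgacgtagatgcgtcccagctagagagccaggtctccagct
In the first Cdkn1a window the pair begins 51 bases before the start and differs from the consensus at 1 base, and a separate half-site begins 73 bases before the start. The window of the second annotated start of Cdkn1a (chr17:29093519-29093818) holds no half-site, and its closest pair differs at 5 bases. In Ccng1 the pair begins 195 bases before the start and also differs at 1 base. A pair with at most 1 mismatch is present in 0.088% of the 32851 mouse windows of this length, and with at most 2 mismatches in 0.798%. A single half-site is present in 8.36% of all windows and in 5 of the 11 member windows, those of Cdkn1a (first start), Ccng1, Mdm2, Sesn1 (second start) and Ppm1d. The matching bases of the last 3 are shown because they are the only matches in those windows.
Mdm2, half-site from 186 bases before the start: GAACTTGCCT
Sesn1, half-site from 173 bases before the second start: AAGCTTGTTT
Ppm1d, half-site from 132 bases before the start: GAGCTTGCTC
The windows with a half-site thus belong to members that rose at 24 hours (the first start of Cdkn1a, Ccng1, Mdm2) and to members that did not (Sesn1, Ppm1d). A match describes letters only, and these windows leave out introns and distant elements.

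Phlda3 (chromosome 1, 135766119 to 135769136, plus strand) encodes a small pleckstrin-homology protein that represses the survival kinase Akt. It measured 167, 105, 67.8, 48.5 and 76.9 CPM in the irradiated pools in time order, against 35.5, 32.8, 38.2, 36.4 and 39.6 CPM in the controls. The irradiated pools lay above all controls at each time, with the lowest at 12 weeks and a higher one again at 32 weeks. Its controls spread by 7.09% of their mean (coefficient of variation), the least of the 10. Matched ratios were 4.67, 3.18, 1.77, 1.33 and 1.94. The rise was 2.19 ± 0.16 on the log2 scale at 24 hours (edgeR adjusted p = 0.000243, at most 0.00168 under the alternatives) and 1.52 ± 0.17 at 1 week (0.033). The differences of 0.89 ± 0.18 at 4 weeks (0.231) and 0.41 ± 0.19 at 12 weeks (0.487) did not pass. At 32 weeks it rose again by 1.08 ± 0.18 (edgeR adjusted p = 0.0345). The 1-week call was lost without the 1-week, 4-week or 32-week control (edgeR adjusted p = 0.149, 0.0636 and 0.0614) and under total count scaling (0.096). It was also lost with limma on log2(FPKM + 1) (limma adjusted p = 0.103) and on log2(FPKM + 0.1) (0.107). The 32-week call was lost without the 24-hour, 1-week or 12-week control (0.0713, 0.0887 and, just past the threshold, 0.05) and under total count scaling (0.0838).

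Mdm2 (chromosome 10, 117688875 to 117710758, minus strand) measured 117, 81.3, 95.3, 68.9 and 96.7 CPM in the irradiated pools, against 64.9, 61.0, 63.5, 67.3 and 53.3 CPM in the controls in time order. All irradiated pools lay above all controls, but the margin at 12 weeks was small (68.9 CPM irradiated, with 67.3 CPM as the highest control). Matched ratios were 1.80, 1.33, 1.5, 1.02 and 1.81, so the 32-week ratio was as large as the first. Mdm2 rose at 24 hours (log2 0.92 ± 0.17, edgeR adjusted p = 0.0391). That call was lost without the 24-hour, 1-week, 4-week or 32-week control (edgeR adjusted p = 0.0612, 0.0986, 0.0635 and 0.054), under total count scaling (0.0659) and with limma on FPKM (0.0952). At 32 weeks the difference was 0.64 ± 0.18 (edgeR adjusted p = 0.108).

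The sestrins are stress-induced proteins that restrain the growth kinase complex mTORC1. Sesn2 (chromosome 4, 132492032 to 132510501, minus strand) measured 79.9, 39.2, 35.0, 26.6 and 17.96 CPM in the irradiated pools in time order, against 16.8, 23.9, 19.0, 15.9 and 29.4 CPM in the controls. The first 3 irradiated pools lay above all controls and the last 2 within their range. It rose at 24 hours (log2 1.93 ± 0.28, edgeR adjusted p = 0.0127; at most 0.0425 under the 12 alternatives). Its matched ratios were 4.73, 1.64, 1.84, 1.67 and 0.613, the last below 1. Sesn1 (chromosome 10, 41809935 to 41908424, plus strand) had no such pattern, with 69.4, 59.6, 74.2, 87.4 and 51.6 CPM in the irradiated pools and 72.1, 75.8, 64.3, 82.6 and 75.3 CPM in the controls. Its 24-hour difference was -0.09 ± 0.19 (edgeR adjusted p = 0.917), and its groups overlapped.

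Plk2 (chromosome 13, 110395046 to 110400844, plus strand), a polo-like kinase gene induced by p53, measured 79.5, 79.9, 64.9, 29.3 and 39.1 CPM in the irradiated pools, against 34.5, 42.7, 44.0, 40.0 and 31.0 CPM in the controls in time order. The first 3 irradiated pools lay above all controls, the 12-week pool below all of them and the 32-week pool within their range. The 24-hour difference was 1.05 ± 0.21 (edgeR adjusted p = 0.0514) and the 1-week difference 1.06 ± 0.21 (0.189), so neither passed. Trp53inp1 (chromosome 4, 11156431 to 11174379, plus strand) encodes a stress protein that acts on p53 and in autophagy. It measured 122, 72.3, 91.5, 123 and 94.9 CPM in the irradiated pools and 56.7, 49.5, 85.4, 70.4 and 115 CPM in the controls. Only the 24-hour and 12-week irradiated pools lay above all controls, whose own spread of 34.4% of the mean was the widest of the 10. Its 24-hour difference was 0.70 ± 0.35 (edgeR adjusted p = 0.477).

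Btg2 (chromosome 1, 134075170 to 134079120, minus strand) encodes an antiproliferative protein that binds the deadenylase complex CCR4-NOT. It measured 241, 246, 247, 198 and 190 CPM in the irradiated pools in time order, against 193, 262, 245, 244 and 291 CPM in the controls. The irradiated pools lay within the range of the controls except at 32 weeks, when the pool lay just below it. The log2 difference at 24 hours was -0.03 ± 0.21 (edgeR adjusted p = 0.978). Ppm1d (chromosome 11, 85311244 to 85347066, plus strand) measured 34.3, 22.8, 24.7, 30.4 and 20.2 CPM in the irradiated pools, against 24.4, 31.1, 28.3, 24.4 and 25.1 CPM in the controls. Its pool lay above all controls at 24 hours and below all of them at 1 and 32 weeks. The 24-hour difference was 0.36 ± 0.23 (edgeR adjusted p = 0.594).

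**Figure D2:**
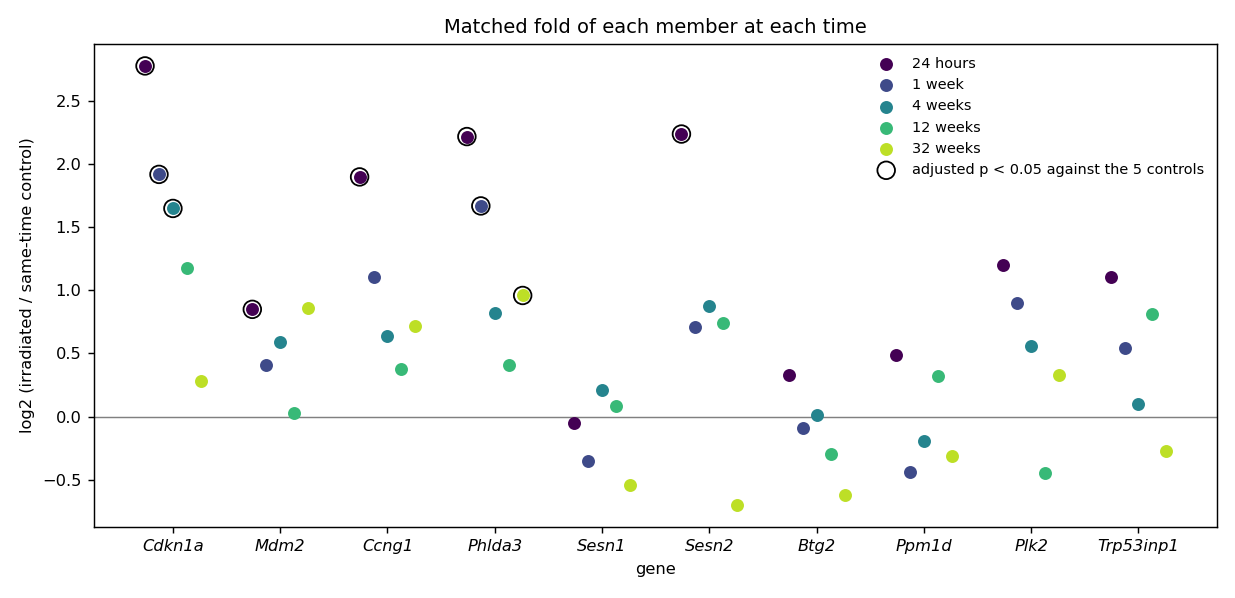
Matched log2 ratio of the irradiated pool to its same-time control for each member (horizontal axis), with a colour per time; rings mark tests against the 5 controls with adjusted p under 0.05. Rings mark 5 genes at 24 hours, and the 4 genes with every point above 0 are Cdkn1a, Mdm2, Ccng1 and Phlda3.

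Over the 5 times, 4 members (Cdkn1a, Mdm2, Ccng1 and Phlda3) were higher in all 5 pairs, as were 6.75% of all genes tested. The same 4 had all irradiated pools above all controls, as had 1.17% of all genes. These 4 held under TMM, total count and DESeq2 scaling and in the authors' FPKM, where Trp53inp1 was also higher in 5 of 5 pairs. At each time those 4 were above all 5 controls. The number of members above all controls was 8 at 24 hours, 6 at 1 week (22.6% of all genes), 6 at 4 weeks (19.1%), 6 at 12 weeks (21.9%) and 4 at 32 weeks (25.5%). The median matched log2 difference of the 10 members was 1.15, 0.63, 0.57, 0.35 and 0.00 in time order, against 0.00, 0.03, 0.03, 0.00 and 0.02 over all genes tested.

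The test over all 10 pools, with time as a block, called 0 members and 0% of all genes. Here the irradiated pools averaged 234 ± 175 CPM of Cdkn1a and the controls 64.6 ± 11.02 CPM (SD, n = 5 pools each; log2 1.57 ± 0.31 SE, edgeR adjusted p = 0.169). The differences were 1.22 ± 0.24 for Phlda3 (0.177), 0.95 ± 0.20 for Ccng1 (0.183), 0.78 ± 0.35 for Sesn2 (0.455), 0.55 ± 0.14 for Mdm2 (0.235), 0.52 ± 0.22 for Plk2 (0.425) and 0.46 ± 0.19 for Trp53inp1 (0.424), all edgeR adjusted p. For Sesn1, Btg2 and Ppm1d they were -0.13, -0.13 and -0.03. At an unadjusted p under 0.05 edgeR counted 6 members and 1732 genes, and DESeq2 called 4 members (Cdkn1a, Mdm2, Ccng1 and Phlda3) and 251 genes. In this test an effect that differs between times counts as spread.

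The change of the irradiation effect with time was tested as a slope per doubling of days after exposure. All 10 members had a negative slope, with a median of -0.15 against 0.01 over all genes. The sign was not the same under every alternative for Mdm2 (-0.11 to 0.04), Sesn1 (-0.04 to 0.04) and Ppm1d (-0.09 to 0.06); for the other 7 it was. Cdkn1a changed by -0.29 ± 0.04 log2 per doubling (unadjusted p = 9.32e-05, edgeR adjusted p = 0.679), Sesn2 by -0.31 ± 0.07, Phlda3 by -0.21 ± 0.05 and Ccng1 by -0.17 ± 0.04, each also at adjusted p = 0.679. edgeR called 0 members and 0% of all genes. At an unadjusted p under 0.05 there were 7 members and 1095 genes, and DESeq2 called 2 members (Cdkn1a and Sesn2) and 60 genes. None of 12 immediate early genes had a slope above 0 either (median -0.12), and 7 had an unadjusted p under 0.05. Slopes above 0 were found for 4 of 28 other p53 targets (median -0.05) and 1 of 8 integrated stress response genes (-0.09). In the list of cyclins and kinases 15 of 21 were above 0 (0.05), and among Trp53 and the genes acting on its protein 9 of 12 (0.03). In the controls alone the slope called 0 members and 0% of all genes, with 673 genes at an unadjusted p under 0.05 and 26 called by DESeq2. Trp53inp1 had the only member slope with an unadjusted p under 0.05 there, 0.13 ± 0.05 per doubling of days (edgeR adjusted p = 0.998). At 12 weeks, where no member passed, 2 members and 1669 genes had an unadjusted p under 0.05, and DESeq2 called 0 members and 222 genes.

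Levels of different genes were compared as FPKM, the authors' values per transcript length. In the controls Btg2 (53.5 ± 6.64 FPKM, SD, n = 5) and Cdkn1a (52.6 ± 9.17) were the most abundant and did not differ beyond their spread. Phlda3 (20.9 ± 0.989) stood between them and the group of Sesn1 (16.1 ± 1.85), Ccng1 (14.6 ± 2.55) and Mdm2 (13.9 ± 1.72), whose ranges overlapped. Plk2 (7.89 ± 1.37), Trp53inp1 (7.46 ± 1.71), Ppm1d (5.22 ± 0.874) and Sesn2 (4.20 ± 0.936) were lowest, and each overlapped its neighbour in this order. In the irradiated pool at 24 hours the order was headed by Cdkn1a at 453 FPKM, followed by Phlda3 at 102, Ccng1 at 57.3 and Btg2 at 56.0 FPKM, and Ppm1d was lowest at 7.63 FPKM.

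For most members the FPKM and the counts gave like matched ratios, but not for all. Trp53inp1 at 12 weeks had a ratio of 3.82 from FPKM against 1.75 from counts, and only 0.711% of 11389 genes were as far from the median gap of that time. Mdm4, which encodes the partner of Mdm2 that also holds p53 down, had 3.03 from FPKM and 1.00 from counts at 24 hours (0.0263% of genes as far). FPKM divides by the length of the transcripts assigned to a gene, and the transcripts behind these values were not examined here. The median gene's matched log2 ratio in FPKM was 0.33 at 32 weeks, 0.22 at 4 weeks and 0.15 at 12 weeks, and -0.15 at 32 weeks in CPM by total count, against 0.03 at 32 weeks, 0.03 at 4 weeks and 0.00 at 12 weeks with TMM. These medians were taken with 0.01 added to each value instead of the prior count of 2, with which the TMM median at 32 weeks was 0.02.

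**Figure D3:**
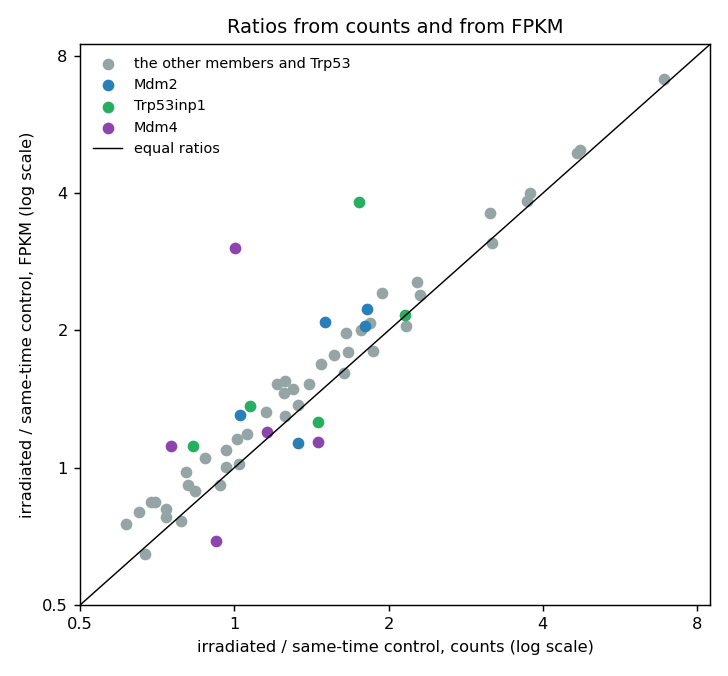
Matched ratio from the authors' FPKM (vertical, log scale) against that from counts (horizontal, log scale) for the 10 members, Trp53 and Mdm4 at the 5 times, with a point per gene and time and a line of equal ratios. Trp53inp1 at 12 weeks (3.82 from FPKM, 1.75 from counts) and Mdm4 at 24 hours (3.03 and 1.00) lie farthest above the line.

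Trp53 and the genes that act on its protein did not pass at any time (0 of 12, edgeR). At an unadjusted p under 0.05 there were 4 lower at 24 hours and 1 lower at 1 week, and DESeq2 called 1 lower at 24 hours; at 4, 12 and 32 weeks both counts were 0. Over all genes the share with an unadjusted p under 0.05 was 11.9%, 9.5%, 7.2%, 10.7% and 16.4% in time order. Trp53, the p53 gene, measured 67.7, 69.8, 89.5, 91.3 and 72.1 CPM in the irradiated pools in time order, against 80.7, 104, 92.8, 89.5 and 103 CPM in the controls. It lay below all controls at 24 hours, 1 week and 32 weeks, with a 24-hour difference of -0.48 ± 0.20 (edgeR adjusted p = 0.372). Mdm4 lay within the control range at each time. The smallest p-values at 24 hours were those of Chek1, a checkpoint kinase gene with 3 counts in the irradiated pool and 18 to 43 in the controls (edgeR adjusted p = 0.099), and of Atr, the replication-stress kinase gene (-0.99 ± 0.33, 0.264).

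Of 28 other p53 targets, with roles in apoptosis, repair and metabolism, 8 rose at 24 hours and none fell. Among all genes tested 0.602% rose and 0.454% fell at that time. Of the 28, 22 lay above the matched control, with a median log2 of 0.45 against 0 over all genes. Ephx1, which encodes the microsomal epoxide hydrolase, reached 550 CPM in the irradiated pool, with control pools at 138 ± 11.6 CPM (SD, n = 5). Its log2 difference was 1.99 ± 0.15 (SE; edgeR adjusted p = 0.000307). Bax, the pore-forming apoptosis gene, rose by 1.42 ± 0.18 (0.00534), Dcxr, a carbonyl reductase gene, by 1.46 ± 0.20 (0.00986) and Eda2r, a death receptor gene, by 3.14 ± 0.45 (0.0112), all edgeR adjusted p. The count of 8 was 5 or 6 without any 1 control, 4 under total count scaling and 10 with DESeq2. At 1 week only Ephx1 passed (1.31 ± 0.16, edgeR adjusted p = 0.045), and none passed without the 1-week, 4-week or 32-week control. Ephx1 also missed the threshold under total count scaling (edgeR adjusted p = 0.096). With limma it missed it on log2(FPKM + 1) (limma adjusted p = 0.112) and on log2(FPKM + 0.1) (0.153). At 4, 12 and 32 weeks edgeR called 0. DESeq2 called 2 (1 higher and 1 lower), 0 and 1 (lower), beside 88, 222 and 831 of all genes. At an unadjusted p under 0.05 there were 6, 4 and 4 of the 28, of which 1 was lower at each time. Among all genes 7.2%, 10.7% and 16.4% had such a p at those times. The list's median was 0.28, 0.31, 0.30 and -0.09 from 1 to 32 weeks.

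The list of cyclins, cyclin-dependent kinases and their inhibitors, which also holds Rb1, E2f1 and Pcna, includes the kinases that p21 acts on. Of its 21 tested genes 5 fell at 24 hours and none rose, where 0.454% of all genes fell and 0.602% rose. The list's median log2 was -0.38, against 0 over all genes. Ccnb2, for cyclin B2, was at 3.04 CPM in the irradiated pool and 29.3 ± 4.26 CPM in the control pools (SD, n = 5). The log2 difference was -3.26 ± 0.35 (SE; edgeR adjusted p = 0.00265). Ccna2, for cyclin A2, was at 3.92 CPM in the irradiated pool and 33.3 ± 4.84 CPM in the control pools (-3.08 ± 0.33, 0.00265). Cdk1, the mitotic kinase gene (-1.91 ± 0.33, edgeR adjusted p = 0.0278), and Ccnb1 (-1.80 ± 0.31, 0.0297) also fell, but not without the 1-week control (0.0743 and 0.0622), and Ccnb1 not without the 32-week control (0.0522). The count of 5 was 2 without the 1-week control and with limma on log2(FPKM + 1), 3 without the 32-week control and 7 with DESeq2. At 1 week edgeR called 0, with 9 at an unadjusted p under 0.05 (2 higher and 7 lower). DESeq2 called 3 at that time, all lower, and 240 of all genes. At 4, 12 and 32 weeks edgeR and DESeq2 called 0. An unadjusted p under 0.05 was found for 1 gene at 4 weeks and 2 at 12 weeks, all higher, and for 3 at 32 weeks, all lower. Among all genes 9.5% had such a p at 1 week and 7.2%, 10.7% and 16.4% later. Cdkn2a, the p16 gene and the untested gene of the list, had 0 counts in 8 pools, 6 counts in the irradiated pool at 32 weeks and 1 count in the control of that time.

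Relatives of the members from the same families (11 tested), integrated stress response genes (8) and immediate early genes (12) had 0 calls by edgeR at each time. At 24 hours 2, 1 and 0 of them had an unadjusted p under 0.05, and DESeq2 called 1, 0 and 0. From 1 to 32 weeks such p-values numbered 4, 0, 1 and 3 among the relatives, 0, 0, 1 and 1 among the stress response genes and 1, 0, 5 and 1 among the immediate early genes, and DESeq2 called 1, a relative at 32 weeks. Among all genes 9.5%, 7.2%, 10.7% and 16.4% had such a p at these times. Immediate early genes, which respond to cell handling as well as to stress, had a median matched log2 of 0.46 at 24 hours, with 11 of 12 above the matched control, and of -0.46 at 32 weeks. Btg2 is itself an early response gene, and its matched log2 was 0.33 at 24 hours and -0.62 at 32 weeks; the part of cell handling in these values was not tested.

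**Figure D4:**
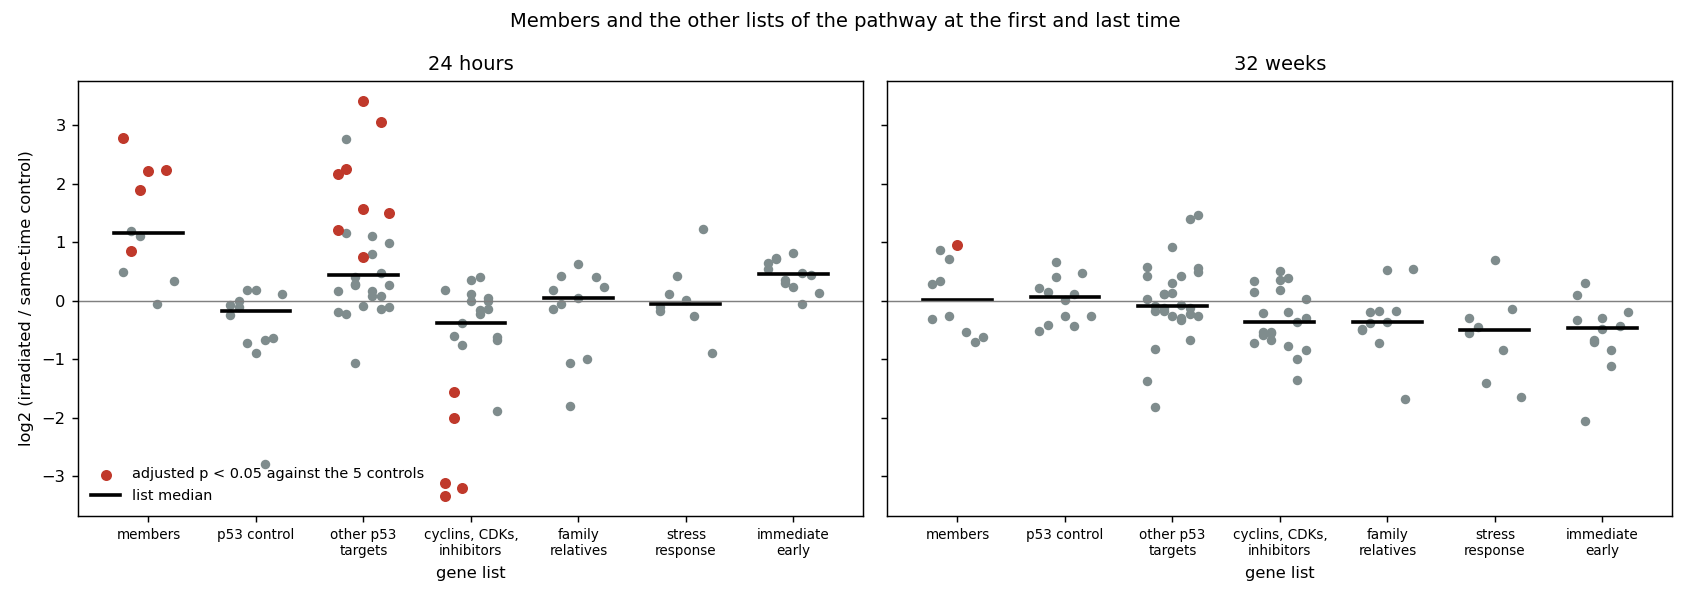
Matched log2 ratio of each gene, by list (horizontal axis), at 24 hours on the left and 32 weeks on the right; red points passed the edgeR test against the 5 controls and bars mark list medians. At 24 hours red points are above 0 among the members and other p53 targets and below 0 among the cyclins and kinases; at 32 weeks the only red point is Phlda3.

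By the root mean square difference between their 5 matched log2 ratios, the genes outside the members most like Cdkn1a among 12364 genes with at least 50 counts on average were Serpinb2 (0.506), Gdf15 (0.525), Zmat3 (0.577), B430306N03Rik (0.655) and Cd5l (0.66). Serpinb2 had matched ratios of 11.9, 2.68, 2.20, 1.97 and 1.51 in time order, and Gdf15, a secreted stress factor of the p53 target list, 10.7, 4.96, 3.69, 3.44 and 1.88. Among the members Phlda3 was closest (0.652, between Zmat3 and B430306N03Rik), then Ccng1 (0.814) and Sesn2 (0.838), and Sesn1 was farthest (1.85). The likeness covers 5 pairs of pools that Cdkn1a and these genes share.

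Sums of some cell type marker lists lay outside the range of the controls at each time, also at 12 weeks, when no member rose. At 24 hours the 4 T cell markers summed to 88.9 CPM in the irradiated pool against 208 to 340 CPM in the controls, and the 4 B cell markers to 442 against 907 to 1410 CPM. All 4 markers of each list lay below all controls, and 2 of each list fell, where 0.454% of all genes fell. The share of all genes below all 5 controls was not counted, and 22.1% lay above them at 24 hours. The 4 ciliated cell markers summed to 36.4 CPM in the irradiated pool against 62.0 to 138 CPM in the controls, and Dnah9 of that list fell. Higher at 24 hours were the sums for alveolar type 2 cells (45100 CPM in the irradiated pool against 19300 to 33500 CPM in the controls), alveolar type 1 cells (595 against 298 to 480), alveolar macrophages (15500 against 6580 to 13900), monocytes and interstitial macrophages (2050 against 982 to 1430) and neutrophils (909 against 406 to 575). Abca3, Marco, C1qb, Ms4a7 and Mmp9 of these lists rose. Of the 4 type 1 markers 3 lay above all controls and 1 below all of them, and none passed. Of the marker genes that passed at 24 hours, Abca3 was kept without any 1 control, but not with limma on log2(FPKM + 1). With that limma fit Cd3g, Cd79b, Marco, C1qb, Ms4a7, Mmp9 and Dnah9 missed the threshold too. Under total count scaling Cd3d, Cd3g, C1qb, Mmp9 and Dnah9 missed it. Mmp9 missed the threshold without any 1 of the 5 controls, and C1qb and Dnah9 without any 1 but the 24-hour control. Cd3g, Cd79b and Marco missed it without the 1-week or the 32-week control, Cd79a and Ms4a7 without the 1-week control, and Cd3d without the 12-week or the 32-week control. At 1 week, when Cdkn1a and Phlda3 rose, the T cell markers summed to 106 CPM and the B cell markers to 618 CPM in the irradiated pool, and all 4 of each list lay below all controls. The type 2 sum was 45300 CPM and the type 1 sum 651 CPM in that pool, above all controls. edgeR called 0 of these markers at 1 week. At an unadjusted p under 0.05 there were 4 T cell and 3 B cell markers lower and 3 type 2 and 2 type 1 markers higher, and DESeq2 called 3, 2, 2 and 1 of them. Among all genes 9.5% had such a p at 1 week, and DESeq2 called 240 genes. Also above all controls in that pool were the sums for endothelial cells (614 CPM, highest control 595), monocytes and interstitial macrophages (1440, 1430) and red cells (70400, 68800). At 12 and 32 weeks the alveolar type 2 sum was 5270 and 6290 CPM in the irradiated pools, and the alveolar macrophage sum was 16300 and 20200 CPM. Of the 4 macrophage markers 1 lay above and 2 below all controls at 12 weeks, and 1 above and 1 below at 32 weeks. At 12 weeks the type 1 sum (187 CPM) and the endothelial sum (279 CPM) also lay below all controls, and the monocyte and interstitial macrophage sum (1670 CPM) above. At 32 weeks the fibroblast sum was 529 CPM, against 965 to 2350 CPM in the controls. Also below all controls at 32 weeks were the sums for T cells (174 CPM, controls 208 to 340), type 1 cells (269, controls 298 to 480) and smooth muscle (25.4, controls 27.8 to 59.7). The ciliated cell sum, low at 24 hours, was 222 CPM at 32 weeks, above the controls at 62.0 to 138 CPM. The club cell sum was 18400 CPM in the irradiated pool at 32 weeks, against 3520 to 13100 CPM in the controls. At 32 weeks, when Phlda3 rose, Sftpc, the surfactant protein C gene of type 2 cells, was at 5941 CPM in the irradiated pool and 24135 ± 5542 CPM in the control pools (SD, n = 5). That difference passed (-2.02 ± 0.35, edgeR adjusted p = 0.0411) but not without the 24-hour, 1-week or 12-week control (0.0569, 0.0986 and 0.0607). At 4 weeks, when Cdkn1a rose, Siglecf of alveolar macrophages was at 26.9 CPM in the irradiated pool (its list summed to 2340 CPM there) and 119.6 ± 18.9 CPM in the control pools. It too passed (-2.15 ± 0.27, edgeR adjusted p = 0.0262) but not without the same 3 controls (0.0555, 0.0784 and 0.0711). Sums above all controls at 4 weeks were those of type 1 cells (557 CPM), ciliated cells (176 CPM) and monocytes and interstitial macrophages (1520 CPM). The part of these shifts in the members' values was not tested.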

How the data were processed

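Per the file headers, the deposited tables hold FPKM and expected counts, which are estimates of fragments. Trimmomatic 0.32, STAR 2.4.2a, Cufflinks 2.0.2 and Cuffdiff are named in the submitters' processing notes; settings and annotation: not given in the sources used here. Per the labels' protocols RNA came from Qiagen RNeasy PLUS and libraries from Clontech ultralow with Illumina NexteraXT, which keeps no strand; no molecular identifiers are named, so PCR copies count. The deposited expected counts lie on a common scale, since 77.2% to 80.2% of low values were whole multiples (tolerance 0.05) of a step of each library, from 0.578 to 1.39. Deposited totals were 9983710 to 13509769.

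Of the identifiers 45137 matched GENCODE M21; the other 649 took at most 0.168% of counts. Counts were rounded, filtered with filterByExpr (minimum count 10) and tested with edgeR 4.0.16 (robust quasi-likelihood, R 4.3.3), with limma 3.58.1 and DESeq2 1.42.0 as alternatives. The test over the 5 times had 4 residual degrees of freedom, as had each single time, and the change with time had 3. The labels pair pools by time, which gives the block. Scripts were tested on simulated data. Members, lists and tests were chosen with earlier results of these data known. Named besides the members and Trp53 and Mdm4 are up to 4 genes per list and time with the smallest passing p, else up to 2, of which some are given here, and the 5 genes outside the members most like Cdkn1a. Sesn3 and Ccng2 stand in a pair of lists each. Left out of sums and tests was no library; 0 pairs of libraries were identical and 0 columns belonged to no sample.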

Additional observations from a re-analysis of the deposited data

Results flagged for a closer look

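Mdm4 in the irradiated pool at 1 week stood apart from the other 4 irradiated pools. It measured 28.1 CPM there, against 19.5, 20.9, 20.5 and 21.2 CPM in the irradiated pools at 24 hours and 4, 12 and 32 weeks, and the gap to the nearest pool was 0.767 of the whole range of log2 CPM (limit 0.71 for 5 samples). The controls spanned 18.1 to 28.3 CPM. Of 24 such groups tested (10 members, Trp53 and Mdm4 in irradiated and in control pools) this was the only one past the limit, and chance passes about 1 in 20.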

How the results depend on the processing

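The members called at 24 hours numbered 4 to 6 under all 12 alternatives, against 5. At 1 week, where 2 passed, total count scaling gave 0, DESeq2 4, limma on log2(FPKM + 1) or log2(FPKM + 0.1) 1 each, and leaving out a control 0 to 2. At 4 weeks, where 1 passed, total count scaling, DESeq2 size factors in edgeR and counts divided by the step gave 0, DESeq2 2, and leaving out a control 0 to 1. At 32 weeks, where 1 passed, total count scaling gave 0, DESeq2 2, and leaving out a control 0 to 1. DESeq2 called 4 members over the 5 times and 2 for the change with time, where edgeR called 0. Without the replicate block edgeR also called 0 in both, with 1.86 for Cdkn1a over the 5 times (adjusted p = 0.217). Of 980 member values under alternatives 52 changed sign, none of a member that had passed, and all where the difference was at most 0.13 in size. Over the 5 times Sesn1 became 0 (rounded) and Ppm1d 0.14 and 0.16 in limma on FPKM, and Ppm1d ranged from -0.16 to 0.08 when a time was left out. Plk2 at 32 weeks was -0.07 under total count scaling and -0.04 to 0.08 when a control was left out. Matched ratios are not among the 980 values. The matched log2 of Ppm1d at 4 weeks changed sign, from -0.19 in counts to 0.07 in FPKM. The cause of these changes was not tested. Calls over all genes varied more: 66 to 540 at 24 hours (165), 0 to 240 at 1 week (3), 5 to 88 at 4 weeks (9), 0 to 222 at 12 weeks (0), 8 to 831 at 32 weeks (129), and up to 251 over the 5 times, 60 for the change and 26 for the control slope (0 each).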
